A study of Mus musculus with 9 samples.

Results

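Tape-stripped back skin was set against unstripped back skin, both labelled as carrying a control cream, to ask what stripping alone does to gene expression 1 day later. The comparison used 6 of the 9 libraries of the series, 3 from stripped skin (labelled TS) and 3 from unstripped skin (labelled None), and these were chosen by their labels with no measured value involved. All 9 libraries came from wild-type C57BL/6 mice, and skin was collected 24 h after treatment. The other 3 libraries, from stripped skin given a cream with nano-sized graphene oxide (NGO), entered the filter, the scaling and the shared estimate of spread but not the contrast. The protocol in the labels places cream on the stripped area, so whether the unstripped skin was also covered with cream is not settled by the labels. Nothing in the labels says that the 3 libraries of a group came from separate mice, and the p-values then rest on how far these libraries differ, which may be technical.

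Tape stripping removes the cornified outer layers of the epidermis with adhesive tape and is a standard model of barrier injury. The epidermis is built of keratinocytes that leave the basal layer, exchange one set of keratins for another, and end as a cross-linked, lipid-sealed sheet. Injured keratinocytes and resident cells release interleukin-1 family members and CXC chemokines, which draw neutrophils from the blood. Below the dermis of mouse back skin lie fat and a thin sheet of skeletal muscle, the panniculus carnosus.

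RNA was measured by Lexogen QuantSeq, which reads a tag at the 3′ end of each transcript, as whole counts per gene symbol. The 6 libraries held 2019739 to 4053655 counts. A gene's level is given as CPM, its counts relative to the TMM-scaled library size. A difference is given as the log2 fold change of stripped over unstripped skin with an approximate standard error (SE). This SE was not fitted: it is the size of the log2 fold change divided by the square root of edgeR's quasi-likelihood F statistic. For genes near 0 in one group it depends on the prior count, as the fold change does. The check of the labelled tissue found Krt5, Krt14, Krt15, Krt1, Krt10 and Krtdap, markers of epidermis, at 3.74% ± 0.228 of counts in unstripped skin and at 0.149% ± 0.0515 in stripped skin (SD, n = 3). Genes of skeletal muscle took 0.162% ± 0.0944 and 10.3% ± 3.90 of counts, and Rn45s, the ribosomal RNA precursor, 14.2% ± 1.63 and 23.4% ± 1.51. The stripped libraries were also less even. Among genes with at least 10 CPM in the other two libraries of the group, 2.54% to 5.29% had no count in a stripped library, against 0% to 0.307% in an unstripped one. The biological coefficient of variation was 1.09 among stripped and 0.461 among unstripped libraries. In such whole-tissue RNA, fewer cells of a type and less RNA per cell cannot be told apart.

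Of 23282 gene entries, 13740 had enough counts to be tested, and 1870 of them (13.6%) passed an adjusted p under 0.05 in edgeR's quasi-likelihood test. Stripping was followed by higher levels of 820 genes (5.97% of those tested) and lower levels of 1050 (7.64%). Every count of list members given below has to be read beside these shares. The changes were large: the median size was 2.99 on the log2 scale among genes called higher and 3.06 among genes called lower. Of the genes called lower, 185 had no count in any stripped library, and 40 of those called higher had none in any unstripped library. Of the 1870 genes, 1854 had groups that did not overlap, but so had 38.5% of all genes tested, and genes named by smallest p had to have separate groups. The count fell to 1187, 1168 and 1159 when unstripped library 1, 2 or 3 was left out, and ran from 1814 to 2124 when a stripped library was left out. The median over all genes tested was -0.20, and it moved to -0.07 with RLE scaling and to -0.58 in limma-voom with group weights. In limma-voom 54.8% of 2040 calls were higher, against 43.9% in the edgeR test, so the balance of rises and falls depends on the method. Among the 1870 calls, the sign of the fitted change was the same in every alternative run that tested the gene. Some runs tested fewer genes, such as 12610 in the fit of the 6 compared libraries.

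**Figure D1:**
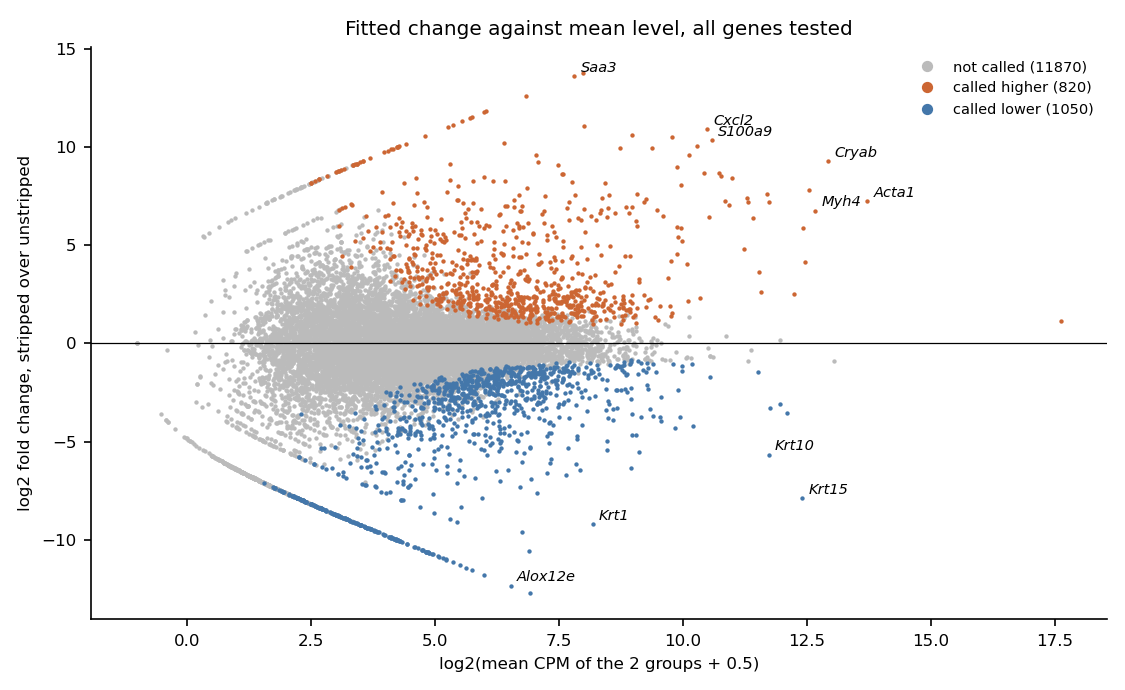
Each point is a gene tested, placed by the log2 of its mean CPM plus 0.5 (horizontal) and by its log2 fold change in stripped over unstripped skin (vertical). The 820 genes called higher are orange, the 1050 called lower are blue and the rest are grey. Curved outer edges hold genes with no count in one group, whose fitted size depends on the prior count.

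Of 6 tested genes in the list of CXC chemokines, not all of them known for attracting neutrophils, 4 rose and none fell, with a median log2 fold change of 6.01. Cxcl2 stood at 0.684, 0.88 and 2.64 CPM in the 3 unstripped libraries and at 2842, 4224 and 1601 CPM in the 3 stripped libraries (log2 fold change 10.95, SE 0.75, adjusted p = 5.79e-06). It was close to absent in each unstripped library and abundant in each stripped one. Cxcl1, its close relative, was at 0, 0 and 4.69 CPM in unstripped and 193, 152 and 128 CPM in stripped skin (log2 fold change 6.59, SE 1.03, adjusted p = 0.000756), again with no overlap. Cxcl5 had no count in the unstripped libraries and 755, 369 and 391 CPM in the stripped ones. Measured against a floor of 3 counts over the 3 unstripped libraries (0.308 CPM, which covers counting error only), that was at least 1524-fold higher (adjusted p = 2.99e-05). Pf4, platelet factor 4, rose from 10.3, 9.38 and 12.9 to 148, 122 and 137 CPM (log2 fold change 3.64, SE 0.48, adjusted p = 0.00023), the smallest fitted rise of the 4 with near-equal values in the stripped libraries. Cxcl3 at 0, 0 and 2.64 against 15.9, 81.1 and 22.1 CPM (adjusted p = 0.0579) and Ppbp at 0, 1.17 and 2.05 against 8.23, 28.1 and 9.59 CPM (adjusted p = 0.241) did not pass the test, although their groups did not overlap either. Cxcl3 passed in 3 of the 10 alternative analyses, and without unstripped library 3, stripped library 1 or NGO library 1 (adjusted p = 0.0281, 0.0374 and 0.0454). Ppbp passed in 1 of the 9 alternatives that tested it.

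Cxcl5, Pf4, Cxcl3, Cxcl1 and Cxcl2 lie within one stretch of chromosome 5, from 90759360 to 90905938 in mm10 (GENCODE M21), which is not theirs alone. The sequences before the start sites of Cxcl1 and Cxcl2 are shown because these neighbours rose together and each holds a pair of matches to the NF-kB motif GGNNTTTCC, searched on both strands in the 250 bases before the RefSeq start (GRCm38.p6). The printed stretch runs from base 250 to base 31 before the start, 5′ to 3′ on the gene's strand, with the matches in capitals. Cxcl1 is at chr5:90890995-90891214 and Cxcl2 at chr5:90903649-90903868, both on the plus strand.
Cxcl1: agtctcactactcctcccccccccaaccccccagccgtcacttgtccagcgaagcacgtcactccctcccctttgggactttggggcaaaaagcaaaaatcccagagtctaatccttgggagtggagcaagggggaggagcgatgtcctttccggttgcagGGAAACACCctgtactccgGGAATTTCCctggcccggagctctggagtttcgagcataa
Cxcl2: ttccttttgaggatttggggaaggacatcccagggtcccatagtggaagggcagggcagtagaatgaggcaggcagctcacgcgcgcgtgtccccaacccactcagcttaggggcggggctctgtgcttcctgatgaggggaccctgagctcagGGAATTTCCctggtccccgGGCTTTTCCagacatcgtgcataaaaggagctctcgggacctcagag
A match is a description of letters and not evidence of binding. Among 10363 tested genes with such a sequence, 5.24% held the NF-kB motif, against 5.50% of the 600 called higher and 4.80% of the 792 called lower. The AP-1 motif TGANTCA was in 5.16% of all, 9.83% of those called higher and 5.56% of those called lower.

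Genes of neutrophil granules and surface rose in 10 of 17 tested members of their list, with none lower (median 5.799). S100a9, which pairs with S100a8 to form calprotectin, was at 2.05, 2.35 and 2.35 CPM in unstripped and 2094, 5215 and 1917 CPM in stripped skin (log2 fold change 10.39, SE 0.695, adjusted p = 5.79e-06). S100a8 was at 4.79, 0.293 and 2.05 and 2222, 3963 and 1303 CPM (log2 fold change 10.05, SE 0.84, adjusted p = 1.15e-05). Both partners were highest in stripped library 2, and the unstripped libraries stayed at a few CPM. Retnlg, a resistin-like protein of neutrophils, went from 0, 0 and 0.88 to 274, 413 and 101 CPM (log2 fold change 9.59, SE 1.204, adjusted p = 0.000176), and Lcn2, the siderophore-binding lipocalin, from 0.684, 0.293 and 0.88 to 31.4, 129.9 and 119 CPM (log2 fold change 7.17, SE 0.87, adjusted p = 0.000138). Lcn2 differed in its order, with the lowest stripped value in library 1. Among 7 neutrophil receptor and growth factor genes 2 rose (Csf3 and Csf2rb) and none fell, and Csf2rb was not called without unstripped library 1 or 3 (adjusted p = 0.0743 and 0.0959). The growth factor of neutrophils, Csf3, had no count in unstripped skin and 50.9, 26.2 and 20.1 CPM in stripped skin, at least 97-fold higher (adjusted p = 0.0121). The chemokine receptor Cxcr2 overlapped between groups, at 1.03, 2.93 and 4.4 and 38.1, 28.1 and 4.15 CPM (adjusted p = 0.117), and passed in DESeq2 only, 1 of the 10 alternative analyses.

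**Figure D2:**
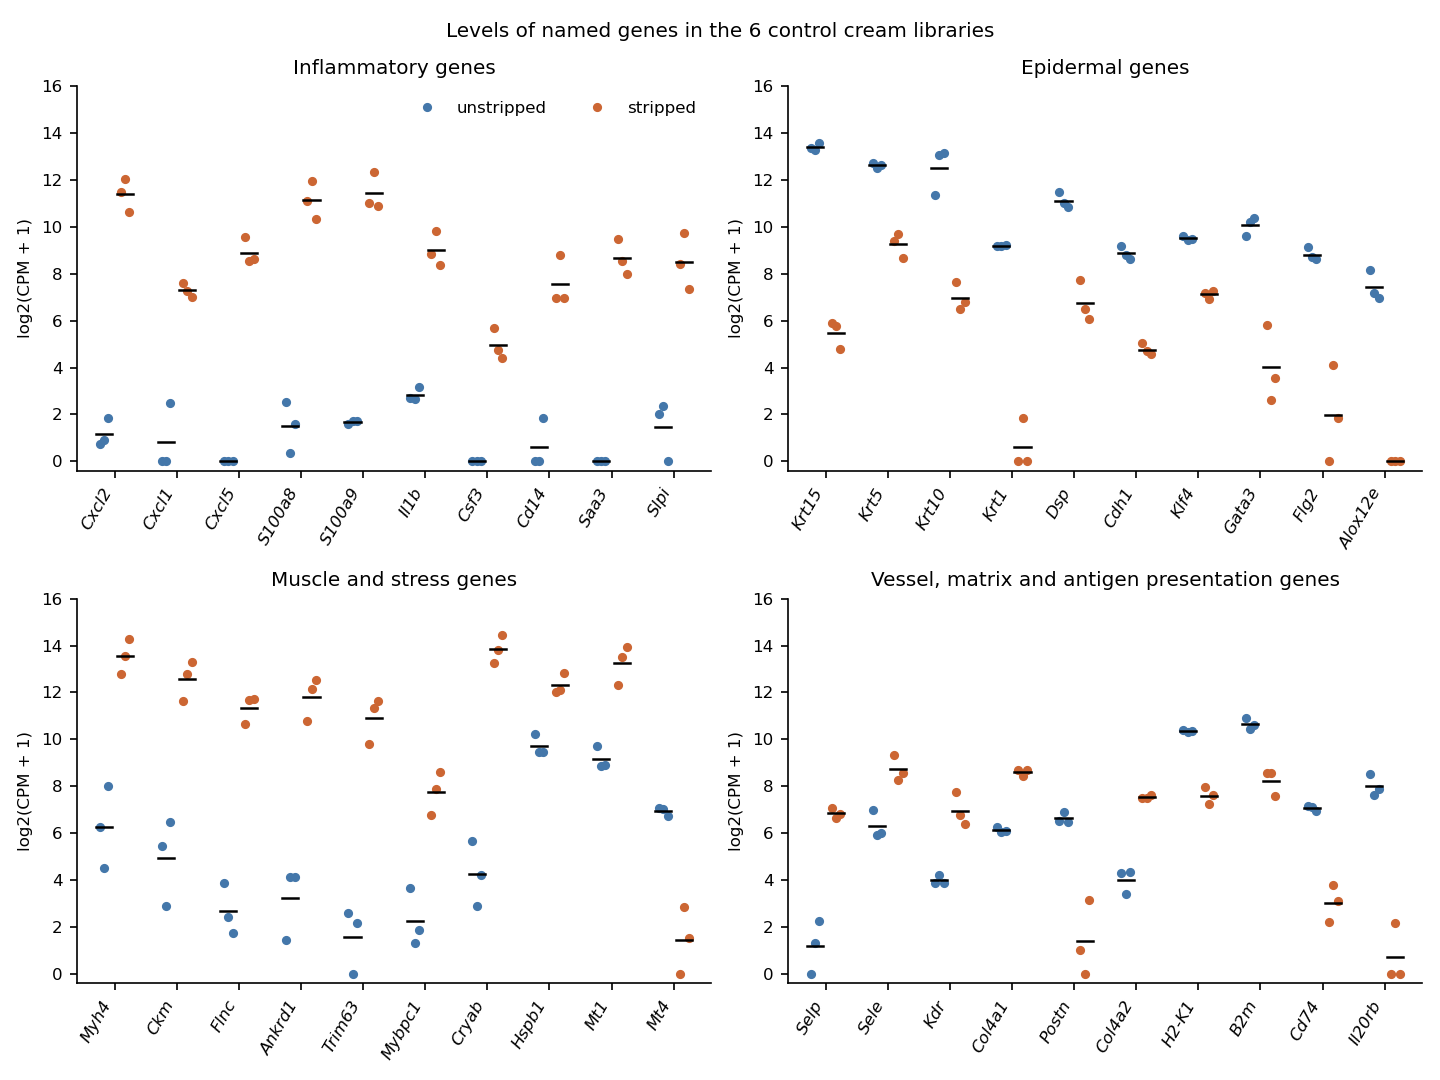
Levels of 40 named genes in 4 panels, as log2(CPM + 1) on the vertical axis, with 1 point per library (blue unstripped, orange stripped) and a bar at the mean of each group of 3. No gene drawn here has overlapping groups. Inflammatory and muscle genes sit high in stripped skin and epidermal and class I genes sit high in unstripped skin.

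In the interleukin-1 family 3 of 15 tested members rose and none fell. Il1b, the secreted cytokine, rose from 5.47, 5.28 and 7.92 to 451, 913 and 329 CPM (log2 fold change 6.49, SE 0.56, adjusted p = 1.49e-05). Nlrp3, the sensor of the inflammasome that matures it, rose from 0, 0.586 and 1.76 to 78.2, 72.7 and 52.4 CPM (log2 fold change 6.34, SE 1.25, adjusted p = 0.00392). Neither gene overlapped between groups. The third call, Il1a, had no count in unstripped skin and 35, 35.9 and 39.6 CPM in stripped skin, at least 121-fold higher (adjusted p = 0.0234). Its adjusted p was 0.0758, 0.0617 and 0.0626 without unstripped library 1, 2 or 3. Il1rn, the receptor antagonist, was at 34.2, 47.2 and 54.8 and 140.5, 114 and 90.8 CPM and missed the threshold (1.34 (SE 0.43, adjusted p = 0.0562)), though it passed in 7 of the 10 alternative analyses. Pycard, the inflammasome adaptor, overlapped between groups at 413, 223 and 237 and 645, 339.7 and 338 CPM.

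Ligands and receptors of several cytokine families changed in either direction. Of 8 tested genes of the interleukin-20 and interleukin-17 axis 2 rose (Il19 and Il24) and 2 fell (Il20rb and Il17rc, the latter not called without unstripped library 1, adjusted p = 0.0644, or in limma-voom, 0.0556). Il19, an interleukin-20 subfamily ligand, had no count in unstripped skin and 12.9, 40.4 and 21.1 CPM in stripped skin, at least 86-fold higher (adjusted p = 0.0071). Il24, a ligand of the same subfamily, rose from 2.74, 0 and 1.76 to 15.4, 56.9 and 26.5 CPM (log2 fold change 4.45, SE 1.07, adjusted p = 0.0136), and its adjusted p was 0.0551 in a fit of the 6 compared libraries alone. Il20rb, the receptor chain that both ligands use, fell from 363, 196 and 235 to 0, 3.56 and 0 CPM (log2 fold change -7.64, SE 0.93, adjusted p = 0.000143). For all 3 the groups were separate. Of 14 interleukin-6 family and STAT3 feedback genes 3 rose (Socs3, Osm and Il11) and 2 fell (Il6ra and Il11ra1). Osm was not called without any 1 of the unstripped or NGO libraries or stripped library 1 (adjusted p 0.0547 to 0.164), Il11 without unstripped library 1 or 3 (0.0616 and 0.0557), nor Il11ra1 without unstripped library 1 or stripped library 2 (0.0811 and 0.0729). Socs3, the feedback inhibitor of STAT3 signalling, rose from 34.9, 78.3 and 79.2 to 246, 464 and 544 CPM (log2 fold change 2.705, SE 0.49, adjusted p = 0.00226), while Il6ra, the interleukin-6 receptor, fell from 85.5, 67.4 and 83.3 to 9.78, 3.23 and 9.59 CPM (log2 fold change -3.39, SE 0.56, adjusted p = 0.00106). Of 11 tested EGF receptor family genes and ligands 1 rose and 1 fell, both of them ligands. The shares among all genes tested were 5.97% higher and 7.64% lower. Hbegf, released by wounded keratinocytes, rose from 122, 37.8 and 54.5 to 559, 578 and 719.8 CPM (log2 fold change 3.12, SE 0.43, adjusted p = 0.000334). Btc, betacellulin, fell from 18.8, 34.9 and 12.3 to 0, 0.323 and 0 CPM (log2 fold change -7.17, SE 2.02, adjusted p = 0.0311), and it was not called without any 1 unstripped library or stripped library 1 or 3 (adjusted p 0.0542 to 0.143). Of 18 growth factor and receptor genes of repair 2 rose (Inhba and Fgf1) and 1 fell (Fgfr2), and both rises were lost without any 1 unstripped library or stripped library 2 or 3 (adjusted p 0.0589 to 0.16). Fgfr2, whose epithelial form receives keratinocyte growth factor, fell from 101, 182 and 207 to 37.6, 14.9 and 11.5 CPM (log2 fold change -2.95, SE 0.53, adjusted p = 0.00205).

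Of 11 tested pattern recognition genes 2 rose and none fell. Cd14, the co-receptor for lipopolysaccharide, was at 0, 0 and 2.64 CPM in unstripped and 123, 439 and 124 CPM in stripped skin (log2 fold change 7.92, SE 1.195, adjusted p = 0.000594). Clec4d, a C-type lectin receptor, had no count in unstripped skin and 59.7, 127 and 56.9 CPM in stripped skin, at least 273-fold higher (adjusted p = 0.000193). Myd88, the shared adaptor, did not pass at 27, 36.6 and 30.8 against 41.2, 63 and 57.9 CPM (adjusted p = 0.275). Hdc, which makes histamine, rose from 3.42, 4.1 and 2.35 to 263, 699.8 and 246 CPM (log2 fold change 6.92, SE 0.604, adjusted p = 1.50e-05), highest in stripped library 2 as S100a9 was. The mast cell receptor gene Mrgprb2 stayed near the floor in both groups, at 3.42, 2.35 and 2.64 and 5.15, 0 and 0 CPM. Of 13 genes of recruited monocytes and macrophages 3 rose (Ccl9, Ccl7 and Spp1) and none fell (median 3.26), and Ccl7 was not called without unstripped library 1 or 3 or stripped library 1 (adjusted p = 0.0837, 0.108 and 0.0514). Ccl9, a chemokine of myeloid cells, rose from 0.342, 0.293 and 0.293 to 23.7, 69.8 and 45.7 CPM (log2 fold change 7.08, SE 1.16, adjusted p = 0.00104). Among 9 genes of gamma delta and resident T cells 1 rose and 1 fell, beside 5.97% higher and 7.64% lower among all genes tested. Icos, a T cell co-stimulator, rose from 53, 30.5 and 25.2 to 105, 196 and 182 CPM (log2 fold change 2.15, SE 0.41, adjusted p = 0.00329). Skint3 fell, but not without any 1 unstripped library, stripped library 2 or 3 or NGO library 2 or 3 (adjusted p 0.0529 to 0.116). Cd3g, a chain of the T cell receptor complex, overlapped at 7.53, 15.2 and 9.38 and 2.57, 4.2 and 10.2 CPM.

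Acute-phase and complement genes rose. Saa3, an acute-phase serum amyloid made locally in inflamed tissue, had no count in the unstripped libraries and 720.3, 371 and 256 CPM in the stripped ones, at least 1333-fold higher (adjusted p = 8.48e-06). Hp, haptoglobin, which binds free haemoglobin, rose from 5.82, 8.5 and 4.98 to 442, 374 and 180.3 CPM (log2 fold change 5.68, SE 0.45, adjusted p = 1.08e-05). Of 15 tested complement and clotting genes 4 rose and none fell (median 2.68): Cfd, Thbd, Cfb and C3. C3 was not called without unstripped library 1 (adjusted p = 0.0944), unstripped library 3 (0.0813) or stripped library 2 (0.127). Cfd, the complement factor D that fat cells secrete, was at 5.13, 7.33 and 3.23 and 364, 563 and 302 CPM (log2 fold change 6.28, SE 0.47, adjusted p = 9.83e-06). Thbd, the endothelial thrombomodulin, was at 9.24, 19.3 and 22 and 236, 345 and 395 CPM (log2 fold change 4.27, SE 0.41, adjusted p = 3.47e-05). Cfb, complement factor B, was at 3.42, 4.69 and 1.47 and 58.1, 82.4 and 27.2 CPM (log2 fold change 4.12, SE 0.75, adjusted p = 0.00224). All of these had separate groups, with Saa3 highest in stripped library 1 and Thbd highest in stripped library 3.

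The sequence before Saa3 is shown because this gene, silent in unstripped skin, carries matches to motifs of both NF-kB (GGNNTTTCC) and C/EBP (TTNCNNAA). It lies on the minus strand at chr7:46715707-46715926 (GRCm38.p6, RefSeq), bases 250 to 31 before the start, with 1 NF-kB and 4 C/EBP matches in capitals. The NF-kB match overlaps a C/EBP match, so they form one run.
Saa3: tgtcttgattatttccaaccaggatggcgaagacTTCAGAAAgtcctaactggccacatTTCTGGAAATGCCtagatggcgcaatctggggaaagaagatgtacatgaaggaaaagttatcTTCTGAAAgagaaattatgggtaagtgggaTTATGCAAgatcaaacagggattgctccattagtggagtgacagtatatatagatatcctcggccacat
The C/EBP motif was in 29.5% of all tested sequences, 36.2% of those called higher and 26.5% of those called lower.

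Most early stress response genes were not called. Of 17 NF-kB subunit and feedback genes 2 rose and none fell, and 5.97% of all genes tested were called higher. Sod2, mitochondrial superoxide dismutase, rose from 75.3, 85.9 and 95.6 to 305, 360.4 and 347 CPM (log2 fold change 1.98, SE 0.298, adjusted p = 0.000556). Tnfaip2 rose from 18.1, 33.4 and 35.8 to 146, 112 and 103 CPM (log2 fold change 2.04, SE 0.44, adjusted p = 0.00681). Nfkbia, the inhibitor of NF-kB that it also induces, was at 637, 519 and 605 and 1162, 1061 and 990.2 CPM, higher in each stripped library but short of the threshold (0.87 (SE 0.28, adjusted p = 0.0592)), which it passed in 7 of the 10 alternative analyses. Rela, an NF-kB subunit, overlapped at 107, 69.2 and 69.5 and 92.6, 126 and 79.9 CPM. Of 23 immediate early genes 5 rose and none fell, namely Ier3, Atf3, Klf2, Fosl1 and Dusp2. Dusp2 was not called without unstripped library 2 or 3 (adjusted p = 0.104 and 0.106). Ier3 went from 25, 15.2 and 19.6 to 223, 677 and 332 CPM (log2 fold change 4.36, SE 0.49, adjusted p = 8.58e-05) and Atf3, a stress-induced repressor, from 61.9, 24.6 and 8.8 to 126, 324 and 348 CPM (log2 fold change 3.07, SE 0.64, adjusted p = 0.00592). Junb, an AP-1 subunit, was at 247, 116 and 92.1 and 283, 409 and 287 CPM and did not pass (adjusted p = 0.0807). It passed in 4 of the 10 alternative analyses, and without unstripped library 1 or stripped library 1 (adjusted p = 0.016 and 0.0481).

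Proteases of matrix and their inhibitors moved in both directions. Mmp10, a stromelysin of the wound edge, rose from 0.342, 2.05 and 0.293 to 19.6, 30.1 and 76.7 CPM (log2 fold change 5.49, SE 1.19, adjusted p = 0.00761), and Adamts1 from 61.6, 34.6 and 21.7 to 207, 305 and 237 CPM (log2 fold change 2.67, SE 0.41, adjusted p = 0.00073). Of 18 tested matrix proteases 4 rose (Mmp10, Adamts1, Mmp19 and Mmp12) and none fell, and 2 rose when any 1 unstripped library was left out (Mmp19 and Mmp12 lost their calls). Among 18 protease inhibitors 4 rose (Slpi, Stfa2l1 and Timp1 among them) and 4 fell (Spink5, Serpinb5, Serpinb12 and Cst6). Slpi, an inhibitor of neutrophil elastase, rose from 3.08, 4.1 and 0 to 342, 853 and 162 CPM (log2 fold change 7.55, SE 0.96, adjusted p = 0.000192). Spink5, which restrains the kallikreins that shed corneocytes, fell from 816, 673 and 682 to 48.9, 68.2 and 30 CPM (log2 fold change -3.88, SE 0.398, adjusted p = 5.25e-05). The groups were separate for both of these inhibitors. Stfa2l1 and Serpinb12, near the floor in one group, were not called when any 1 unstripped library was left out (adjusted p 0.103 to 0.107 and 0.098 to 0.11).

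Keratins of the intact epidermis fell, and those of wounded epidermis mostly did not pass the test. All 3 basal keratins fell. Krt15, of basal and follicle stem cells, went from 10378, 10009 and 12111 CPM to 58.7, 53.3 and 26.5 CPM (log2 fold change -7.88, SE 0.46, adjusted p = 2.08e-06), the smallest p of all genes tested. Krt5 went from 6762, 5819 and 6379 to 664, 835 and 409 CPM (log2 fold change -3.31, SE 0.33, adjusted p = 4.10e-05) and its partner Krt14 from 12226, 4841 and 4406 to 948, 990.4 and 561 CPM (log2 fold change -3.103, SE 0.45, adjusted p = 0.000425). All 3 had separate groups, and the fitted fall of Krt15 was the deepest of the 3.

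Of 7 suprabasal genes 5 fell and none rose (median -5.66). Krt10 fell from 2594, 8449 and 8994 to 198, 88.6 and 109.9 CPM (log2 fold change -5.66, SE 0.56, adjusted p = 4.10e-05). Krt1, with which Krt10 pairs, fell from 576, 577 and 589.6 to 0, 2.59 and 0 CPM (log2 fold change -9.202, SE 0.83, adjusted p = 2.10e-05), and 2 of its 3 stripped libraries had no count. Krt77 at 83.1, 75.1 and 61.9 CPM and Krt78 at 132, 56.9 and 56 CPM in unstripped skin had no count in any stripped library, at least 198-fold (adjusted p = 0.000147) and 216-fold (adjusted p = 0.00448) lower against a floor of 3 counts over the 3 stripped libraries (0.367 CPM). Krtdap, a protein of differentiating keratinocytes, fell from 1483, 1832 and 1967 to 84.9, 119 and 66.5 CPM (log2 fold change -4.29, SE 0.35, adjusted p = 1.08e-05). Krt10 thus stayed measurable in the 2 stripped libraries where Krt1 had no count. The other two members did not pass, among them Krt80 at 18.8, 12.3 and 6.74 and 0, 0 and 6.71 CPM (adjusted p = 0.491).

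The wound and companion keratins had a median of -0.23. Krt6a, induced in activated keratinocytes, was at 1215, 344 and 332 CPM in unstripped and 1872, 1645 and 1268 CPM in stripped skin, above in every library yet not called (1.34 (SE 0.46, adjusted p = 0.0699)). It was called in 5 of the 10 alternative analyses, RLE and upper-quartile scaling among them, and without unstripped library 1 (log2 fold change 2.22, adjusted p = 0.00121), whose value was the highest of the 3. Krt6b at 165, 76.8 and 52.2 against 127, 157 and 152 CPM, Krt16 at 307, 127 and 101 against 199, 169 and 87.6 CPM and Krt75 at 17.8, 34 and 10.3 against 18.5, 12.6 and 6.39 CPM overlapped between groups. Krt17 was the only one called, lower at 213, 232 and 274 CPM against 1045, 479 and 442 CPM (log2 fold change -1.45, SE 0.38, adjusted p = 0.023), and its adjusted p was 0.115 without unstripped library 1 and 0.0617 without stripped library 2. Krt6a and Krt6b are near-identical, so reads may have been split between them. In the stripped libraries Krt6a and Krt6b were inside or above their unstripped range, Krt17 was below its own, and Krt16 and Krt75 overlapped theirs. Krt1, Krt10 and Krt15 were far below theirs.

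**Figure D3:**
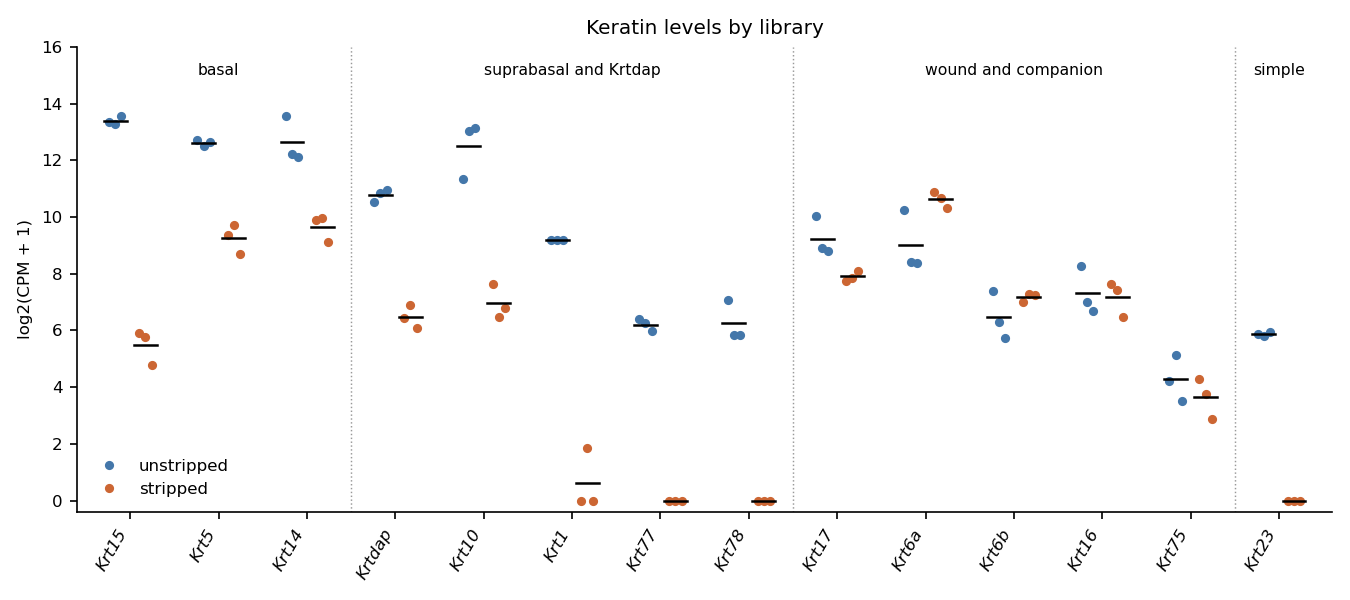
Keratin levels as log2(CPM + 1), 1 point per library with a bar at the mean of 3, by layer from basal (left) to simple keratins (right). Basal and suprabasal keratins lie lower in stripped skin (orange) than in unstripped skin (blue), Krt77, Krt78 and Krt23 reach 0 in all 3 stripped libraries, and Krt6b, Krt16 and Krt75 overlap.

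Cell contacts of the epidermis fell together. Of 17 tested desmosome genes 11 fell and none rose (median -3.39). Dsp, desmoplakin, which ties desmosomes to keratin, fell from 2829.8, 2081 and 1835 to 212, 87.9 and 66.8 CPM (log2 fold change -4.205, SE 0.44, adjusted p = 5.59e-05), and Perp from 1446, 1355 and 1441 to 86.4, 111 and 80.2 CPM (log2 fold change -3.93, SE 0.33, adjusted p = 1.15e-05). The plakophilins Pkp1, at 884, 466 and 569 and 57.6, 54.3 and 71 CPM (log2 fold change -3.39, SE 0.38, adjusted p = 8.56e-05), and Pkp3, at 917, 502 and 493 and 96.2, 87.9 and 67.1 CPM (log2 fold change -2.93, SE 0.36, adjusted p = 0.00014), fell likewise. Cdh1, E-cadherin of adherens junctions, fell from 579.6, 448 and 394 to 31.9, 24.9 and 22.7 CPM (log2 fold change -4.16, SE 0.35, adjusted p = 1.15e-05). All 5 had separate groups, with the highest stripped value far under the lowest unstripped one.

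Anchoring genes of the basal layer fell in part. Of 15 hemidesmosome and basal integrin genes 6 fell and 1 rose (median -1.33), with 3 lower when unstripped library 1 was left out. The single rise, Itgb1, the common integrin beta chain, was lost without unstripped library 2 or 3, stripped library 3, or NGO library 1 or 2 (adjusted p 0.0582 to 0.183). Col17a1 fell from 239, 562 and 673 to 41.2, 51.4 and 41.5 CPM (log2 fold change -3.46, SE 0.44, adjusted p = 0.000193) and Itga6, integrin alpha 6, from 694, 710.1 and 706 to 188, 303 and 229.8 CPM (log2 fold change -1.55, SE 0.295, adjusted p = 0.003). Lamb3, a laminin chain of the basement membrane, fell from 116, 86.5 and 113 to 39.6, 21.7 and 12.1 CPM (log2 fold change -2.11, SE 0.46, adjusted p = 0.00766). Among 17 tight and gap junction genes 4 fell (Cldn1, Gjb5 and Cldn4 among them) and none rose, with 2 left when unstripped library 1 was omitted (Cldn4 lost its call, adjusted p = 0.0908). Cldn4 was not called without unstripped library 3 either (0.066). Cldn1, a seal of the granular layer, fell from 81.4, 114 and 105 to 1.03, 15.2 and 1.92 CPM (log2 fold change -4.01, SE 0.89, adjusted p = 0.00847), and Gjb5, a connexin, from 53.7, 53.4 and 40.8 CPM to no count, at least 134-fold (adjusted p = 0.00828). Gja1, the most widespread connexin, was at 217, 256 and 277 and 448, 347 and 339 CPM and did not pass (adjusted p = 0.177).

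Genes of the cornified envelope moved in both directions. Of 16 S100-fused and late envelope genes 5 fell (Flg2, Hrnr, Ivl, Lor and Lce1c) and 2 rose (Lce3c and Lce3d), and the median of -2.36 was -1.91 with genes at 0 in one group set to their bound. Flg2, filaggrin 2, fell from 557, 413 and 396 to 0, 16.2 and 2.56 CPM (log2 fold change -6.12, SE 0.89, adjusted p = 0.000468), and Lor, loricrin, from 171, 132 and 152 to 0, 12.3 and 6.07 CPM (log2 fold change -4.58, SE 0.92, adjusted p = 0.00431). Hrnr, hornerin, fell from 134, 61.6 and 68.6 to 0, 3.88 and 0 CPM (log2 fold change -5.96, SE 1.04, adjusted p = 0.00166). All 3 were at or near 0 in stripped library 1 and highest, among stripped libraries, in library 2. Ivl, involucrin, fell from 12.3, 39.9 and 39.6 CPM to no count, at least 86-fold (adjusted p = 0.00364). Casp14, the protease that processes filaggrin, fell from 80.4, 33.7 and 59.8 CPM to no count, at least 155-fold (adjusted p = 0.000577). The late cornified envelope genes Lce3c and Lce3d are near-identical copies and are known from injured skin. They had no count in unstripped skin and 6.17, 16.2 and 8.63 and 28.3, 65.9 and 9.27 CPM in stripped skin, at least 35-fold (adjusted p = 0.00554) and 115-fold higher (adjusted p = 0.0044). Other Lce3 genes tested in this list were not called. Lce1c was not called when any 1 unstripped library was left out (adjusted p 0.0816 to 0.0839), nor without stripped library 2 or 3 (0.0616 and 0.0608) or NGO library 1 or 3 (0.0612 and 0.0567).

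Small proline-rich genes also moved in both directions. Sprr2d had no count in unstripped skin and 46.8, 13.9 and 7.03 CPM in stripped skin, at least 62-fold higher (adjusted p = 0.00892). Sprr2a2 fell from 405, 183 and 63.6 to 11.8, 12.6 and 23.3 CPM (log2 fold change -3.76, SE 0.61, adjusted p = 0.00102), with an adjusted p of 0.111 in limma-voom. These genes are near-identical copies, and the sources used here do not say how reads matching several of them were counted. Of 12 tested members 4 rose and 2 fell, and 1 or 2 rose without unstripped library 3 (1), unstripped library 2 (2) or stripped library 2 (2), while 1 fell without unstripped library 1.

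Lipid genes of the barrier fell in 9 of 21 tested members with none higher (median -2.74). Alox12e, an epidermal lipoxygenase, fell from 286, 143 and 125 CPM to no count in any stripped library, at least 489-fold (adjusted p = 6.67e-05). Cyp4f39, which makes the omega-hydroxy fatty acids of acylceramides, fell from 46.5, 28.7 and 26.4 CPM to no count, at least 91-fold (adjusted p = 0.000383). Elovl4, which elongates the same fatty acids, fell from 597, 432 and 428 to 76.7, 76.6 and 55.3 CPM (log2 fold change -2.805, SE 0.36, adjusted p = 0.00019) and so kept a measurable level in every stripped library. Scd1 fell from 279.9, 265 and 239.5 to 36, 38.5 and 40.3 CPM (log2 fold change -2.77, SE 0.31, adjusted p = 8.13e-05), Fasn from 379, 198 and 169 to 23.2, 44.3 and 24 CPM (log2 fold change -3.02, SE 0.41, adjusted p = 0.000315) and Elovl6 from 133, 159 and 119 to 0, 5.17 and 6.39 CPM (log2 fold change -5.07, SE 0.704, adjusted p = 0.000339). These make fatty acids in sebocytes and elsewhere, and Scd3, the sebocyte paralog of Scd1, stood at 198, 184 and 176 and 380.2, 259 and 253 CPM without passing (adjusted p = 0.164).

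Transcription factors of keratinocytes fell in 10 of 24 tested members with none higher (median -2.32). Gata3 fell from 777, 1162 and 1337 to 55.6, 5.17 and 10.9 CPM (log2 fold change -5.55, SE 0.76, adjusted p = 0.0003), with a stripped library 1 value several times that of the other two. Klf4, which drives barrier formation, fell from 771, 696 and 710.1 to 145, 119.6 and 153 CPM (log2 fold change -2.38, SE 0.28, adjusted p = 0.000102). Klf5, of proliferating keratinocytes, fell from 655, 469 and 549 to 101, 222 and 134 CPM (log2 fold change -1.87, SE 0.34, adjusted p = 0.00247). Other epidermal genes had among the smallest p of all genes that fell. Bcl11b, a transcription factor of skin and T cells, fell from 679.8, 714 and 714 to 58.7, 87.6 and 64.6 CPM (log2 fold change -3.32, SE 0.3001, adjusted p = 1.92e-05), and Trim29 from 1298, 814 and 982 to 49.4, 25.5 and 46.3 CPM (log2 fold change -4.68, SE 0.399, adjusted p = 1.23e-05). Calm4, an epidermal calmodulin-like protein, fell from 878, 618 and 582 to 15.4, 22.3 and 9.91 CPM (log2 fold change -5.44, SE 0.45, adjusted p = 1.10e-05), and Itpr3, a calcium release channel, from 252, 159 and 182 to 6.69, 5.17 and 7.03 CPM (log2 fold change -4.97, SE 0.41, adjusted p = 1.10e-05). Lgals7, the keratinocyte galectin, fell from 11307, 5719 and 7301 to 541, 924 and 641 CPM (log2 fold change -3.53, SE 0.38, adjusted p = 6.90e-05). The groups were separate in each of these genes, which the choice by smallest p required of part of them.

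**Figure D4:**
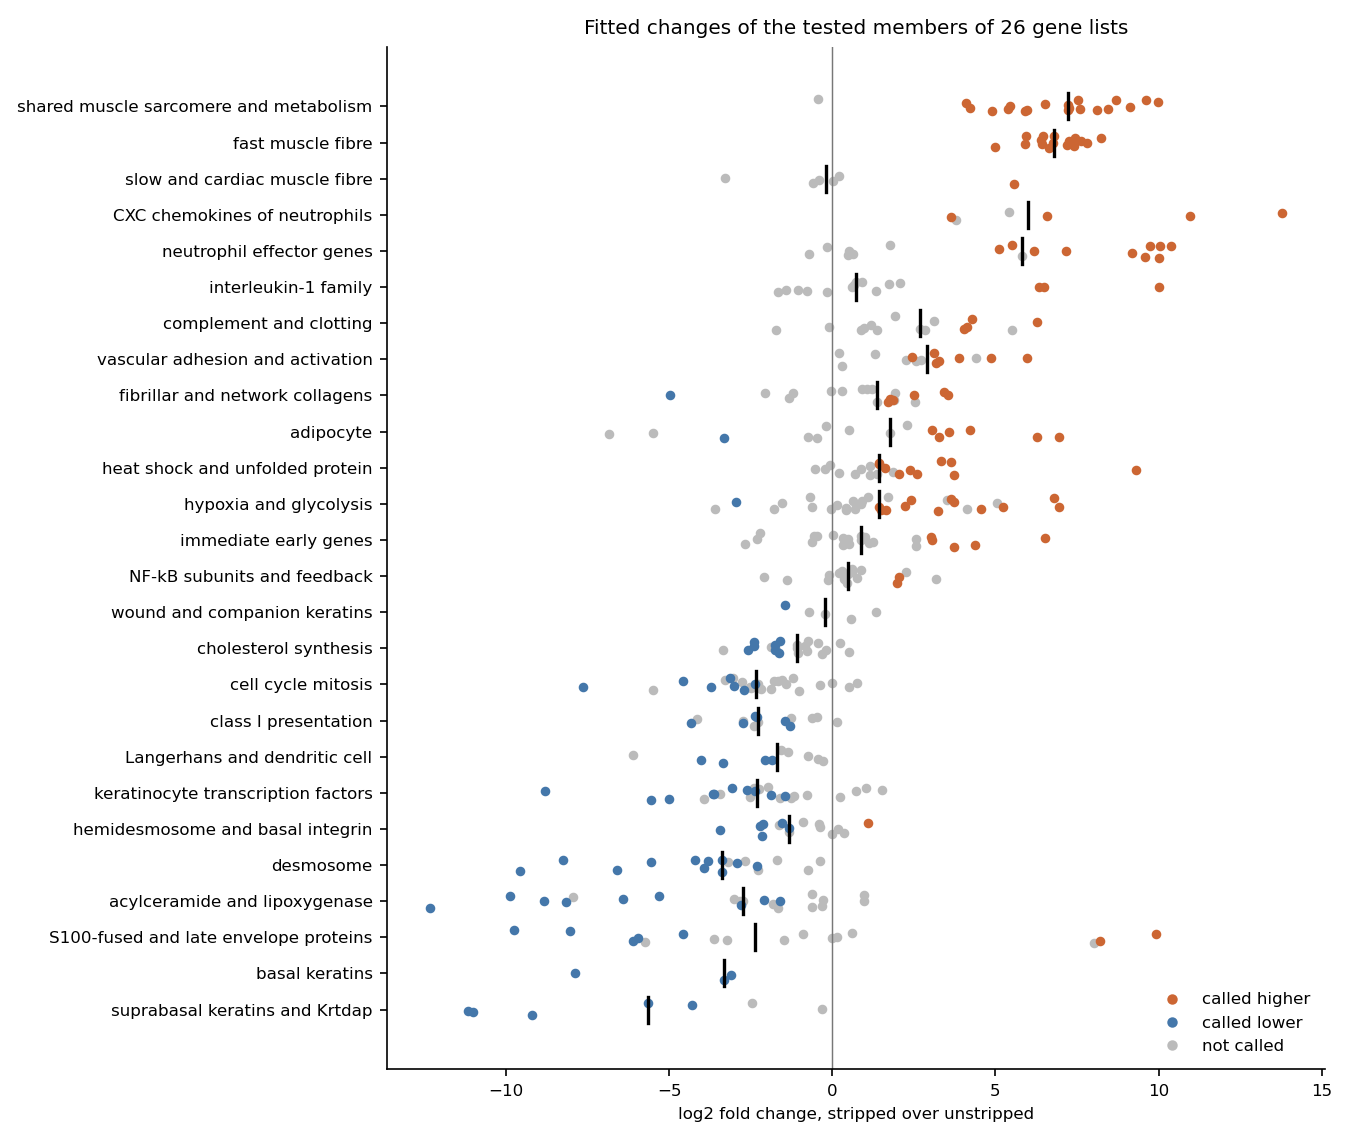
Each point is a tested member of the list named at left, placed by its log2 fold change in stripped over unstripped skin, with a black bar at the median. Members called higher are orange, called lower blue and not called grey. Both large muscle lists lie wholly or almost wholly to the right, and the basal keratin, suprabasal keratin and desmosome lists to the left. The wound and companion keratins lie on both sides of 0, and the slow muscle list straddles 0 but for 1 gene.

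Antigen presentation genes fell. Of 14 tested class I genes 6 fell and none rose (median -2.29). H2-K1 fell from 1361, 1259 and 1314 to 246, 151 and 196 CPM (log2 fold change -2.73, SE 0.31, adjusted p = 8.20e-05) and H2-D1 from 713, 1145 and 1297 to 233, 229.8 and 173 CPM (log2 fold change -2.31, SE 0.303, adjusted p = 0.000214). These class I heavy chains share much sequence, so their reads may not be fully separable. B2m, the common light chain, fell from 1899.9, 1386 and 1559 to 378, 376 and 192 CPM (log2 fold change -2.36, SE 0.32, adjusted p = 0.0003), and Tap1, which loads peptides, from 163, 146 and 145 to 3.6, 4.85 and 13.4 CPM (log2 fold change -4.34, SE 0.55, adjusted p = 0.000176). All 4 genes were lower in every stripped library than in any unstripped one. Among 10 Langerhans and dendritic cell genes 4 fell, all of class II: Cd74, H2-Ab1, H2-Aa and H2-Eb1. Cd74, the invariant chain, fell from 143, 137 and 124 to 3.6, 12.9 and 7.67 CPM (log2 fold change -4.04, SE 0.56, adjusted p = 0.000339) and H2-Ab1 from 248, 227 and 209 to 37.6, 19.4 and 10.2 CPM (log2 fold change -3.36, SE 0.57, adjusted p = 0.00132). H2-Eb1 was not called when unstripped library 2 was left out (adjusted p = 0.0516).

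Interferon-stimulated genes rose in 3 of 24 tested members and 1 fell (median 1.22). Irf7, a regulator of type I interferons, rose from 1.03, 0.586 and 1.17 to 53, 13.6 and 16.9 CPM (log2 fold change 4.85, SE 1.09, adjusted p = 0.00908), and Ifit3 from 8.55, 1.76 and 4.98 to 75.1, 53 and 25.2 CPM (log2 fold change 3.32, SE 0.82, adjusted p = 0.0157). Rsad2, viperin, rose from 16.1, 8.8 and 6.16 to 74.1, 85.7 and 29.4 CPM (log2 fold change 2.61, SE 0.73, adjusted p = 0.0312). All 3 were highest in stripped library 1 or 2. None of these 3 calls held throughout: Irf7 was lost without unstripped library 2 (adjusted p = 0.0517), Ifit3 without unstripped library 2 or 3 (0.0774 and 0.0698), and Rsad2 without any 1 unstripped library or stripped library 2 (0.0529 to 0.136).

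Proliferation genes fell or did not pass. Of 26 mitosis genes 7 fell and none rose (median -2.33). Top2a fell from 561, 263 and 214 to 47.3, 31.7 and 50.5 CPM (log2 fold change -3.003, SE 0.396, adjusted p = 0.000236) and Tpx2, of the spindle, from 38.3, 33.1 and 21.7 to 0, 0 and 0.32 CPM (log2 fold change -7.64, SE 1.16, adjusted p = 0.000595). Pola1, the DNA polymerase subunit that starts replication, fell from 42.1, 32.2 and 34.9 CPM to no count, at least 98-fold (adjusted p = 0.000425). Of the 21 cholesterol synthesis genes tested 7 fell and none rose, and 4 fell when any 1 of the unstripped or NGO libraries, or stripped library 2, was left out. Msmo1 fell from 210.1, 169 and 168 to 44.2, 38.8 and 19.8 CPM (log2 fold change -2.41, SE 0.39, adjusted p = 0.00093) and Cyp51 from 201, 125 and 115 to 37.6, 14.9 and 31 CPM (log2 fold change -2.41, SE 0.42, adjusted p = 0.00179).

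Vessel genes rose in 7 of 14 tested members with none lower (median 2.91). Selp, P-selectin, which tethers leukocytes, rose from 0, 1.47 and 3.81 to 134, 100.2 and 112 CPM (log2 fold change 5.98, SE 0.94, adjusted p = 0.000805), and Sele, E-selectin, from 126, 59.5 and 63.3 to 651, 309.7 and 384 CPM (log2 fold change 2.44, SE 0.41, adjusted p = 0.00139). Kdr, the main VEGF receptor, rose from 13.7, 17.6 and 13.8 to 214, 108 and 82.8 CPM (log2 fold change 3.16, SE 0.52, adjusted p = 0.00115) and Plvap, of fenestrated vessels, from 12.3, 10.3 and 8.21 to 72, 68.2 and 126 CPM (log2 fold change 3.11, SE 0.48, adjusted p = 0.000633). The vessel genes given here, picked from their list by p or mean level, had separate groups. Kdr and Sele were highest in stripped library 1 and Plvap in stripped library 3. Over the whole list, 9 of 14 tested members were separate with stripped skin higher and none with it lower. For comparison, separation in either direction was seen in 38.5% of the genes tested. Globin genes rose as well: Hba-a1 from 98.9, 31.7 and 45.7 to 605, 869 and 732 CPM (log2 fold change 3.65, SE 0.42, adjusted p = 0.000102). Globin transcripts took 0.0104% ± 0.00655 of counts in unstripped and 0.108% ± 0.0161 in stripped skin, and the part of blood or of deeper tissue in the vessel result was not tested.

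Collagens of basement membranes and of fibres rose, while other matrix genes went either way. Of 19 collagens 6 rose and 1 (Col16a1) fell (median 1.36). Col4a1 rose from 74.9, 65.7 and 67.4 to 412, 347 and 417 CPM (log2 fold change 2.499, SE 0.31, adjusted p = 0.00015) and Col4a2, its partner chain in basement membranes, from 18.8, 9.67 and 19.4 to 182, 183 and 196 CPM (log2 fold change 3.55, SE 0.43, adjusted p = 0.00013). Col15a1, found around vessels and muscle fibres, rose from 11.6, 4.4 and 7.04 to 84.9, 73.1 and 87.9 CPM (log2 fold change 3.41, SE 0.53, adjusted p = 0.000675). None of these 3 overlapped between groups, and their stripped values lay close together. Col1a1, of fibrillar collagen, rose from 147, 101 and 105 to 439, 455 and 251 CPM (log2 fold change 1.696, SE 0.36, adjusted p = 0.0061). Spp1, osteopontin, rose from 29.1, 45.1 and 33.7 to 208, 543 and 154 CPM (log2 fold change 3.07, SE 0.496, adjusted p = 0.00098), while Postn, periostin, fell from 90.7, 120.2 and 88 to 1.03, 0 and 7.99 CPM (log2 fold change -4.99, SE 0.95, adjusted p = 0.00304). Postn was near or at 0 in the stripped libraries, where Spp1 was highest in library 2. Tgm2, the tissue transglutaminase, rose from 4.11, 14.4 and 4.98 to 644, 1261 and 1643 CPM (log2 fold change 7.23, SE 0.58, adjusted p = 1.08e-05). Dcn, decorin, rose from 19.2, 32 and 27.6 to 169.8, 191 and 114 CPM (log2 fold change 2.59, SE 0.51, adjusted p = 0.00367), and Gsn, gelsolin, fell from 1008, 719 and 667 to 120.4, 208 and 107 CPM (log2 fold change -2.46, SE 0.36, adjusted p = 0.000505), so fibroblast-linked genes did not move one way.

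The 2 large lists of skeletal muscle genes had the highest shares of rising members of all lists examined. All 16 fast fibre genes rose (median 6.78), as did 19 of 20 shared sarcomere and metabolic genes (median 7.23). Summed over the fast list, the unstripped libraries held 463, 79.7 and 1020.02 CPM and the stripped libraries 29012, 66325 and 95788 CPM. Myh4, the myosin of fast IIb fibres, was at 76.6, 22 and 256 CPM in unstripped and 7065, 12125 and 19721 CPM in stripped skin (log2 fold change 6.78, SE 0.84, adjusted p = 0.000161). Ckm, muscle creatine kinase, was at 42.8, 6.45 and 89.4 and 3198, 7090.2 and 10011 CPM (log2 fold change 7.19, SE 0.88, adjusted p = 0.00015), and Casq1, the calcium store of fast fibres, at 0, 0.293 and 3.81 and 181, 478 and 639.5 CPM (log2 fold change 8.23, SE 0.895, adjusted p = 7.26e-05). The groups were far apart in each case, and unstripped library 2 held the least of Myh4 and Ckm. Of 6 tested slow and cardiac genes only Mybpc1 rose, from 11.6, 1.47 and 2.64 to 109, 239 and 392 CPM (log2 fold change 5.57, SE 0.87, adjusted p = 0.00073). Atp2a2, the slow-fibre and general calcium pump, was at 247, 239.8 and 246 and 219, 101 and 163 CPM and did not pass (adjusted p = 0.267).

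The muscle genes named from the shared list and from the smallest p include several linked to load, repair and turnover. Log2 fold changes given here ran from 6.66 to 9.603, beside medians of 6.78 (fast) and 7.23 (shared) over the large muscle lists. More muscle in a stripped sample and more RNA of these genes per muscle cell cannot be told apart, and neither was tested. Ankrd1, induced by stretch and injury in muscle, rose from 1.71, 16.7 and 16.4 to 1752, 4596 and 5890.2 CPM (log2 fold change 8.44, SE 0.799, adjusted p = 2.78e-05). Trim63, a ubiquitin ligase of muscle wasting, rose from 5.13, 0 and 3.52 to 897, 2585 and 3209.9 CPM (log2 fold change 9.603, SE 1.0001, adjusted p = 5.59e-05), and Xirp2 from 72.5, 0.88 and 28.1 to 2738, 5174 and 7255 CPM (log2 fold change 7.23, SE 1.11, adjusted p = 0.00067). Ankrd1 and Trim63 were low in unstripped and abundant in stripped skin. Flnc, the muscle filamin, rose from 13.7, 4.4 and 2.35 to 1633, 3254 and 3378 CPM (log2 fold change 8.67, SE 0.69, adjusted p = 1.08e-05), and Mustn1 from 3.42, 6.16 and 1.47 to 1021, 2231 and 2407 CPM (log2 fold change 8.99, SE 0.73, adjusted p = 1.08e-05). Klhl40, which stabilises thin filaments, rose from 29.8, 24.3 and 33.7 to 2323, 3915 and 5334 CPM (log2 fold change 7.04, SE 0.57, adjusted p = 1.08e-05), and Klhl41 from 8.9, 5.57 and 8.8 to 589.6, 608 and 1159.6 CPM (log2 fold change 6.66, SE 0.52, adjusted p = 1.08e-05). Of 10 tested myogenic regulators 6 rose (Myog, Des, Myf6, Myh8, Mef2c and Myod1) and none fell (median 3.92). Myog, which drives fusion and differentiation of muscle cells, rose from 0, 0.293 and 0 to 35, 95 and 105 CPM (log2 fold change 9.16, SE 1.23, adjusted p = 0.00028). Each of the 8 genes given with values here was lowest, among the stripped libraries, in library 1.

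The sequence before Myh4 is shown because the motif of MEF2, a factor of muscle genes, was found more often before genes called higher than before all genes. A match to the MEF2 motif was in 5.17% of sequences of genes called higher, against 1.32% of all and 0.505% of those called lower. Myh4 lies on the plus strand, and the stretch at chr11:67237562-67237781 (GRCm38.p6, RefSeq), bases 250 to 31 before the start, has its MEF2 match in capitals.
Myh4: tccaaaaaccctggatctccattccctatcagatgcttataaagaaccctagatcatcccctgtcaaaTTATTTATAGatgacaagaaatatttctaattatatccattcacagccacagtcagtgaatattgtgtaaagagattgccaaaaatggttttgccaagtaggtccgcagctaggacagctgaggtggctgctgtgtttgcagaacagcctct

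Heat shock and glycolytic genes rose as well. Cryab, a small heat shock protein abundant in muscle, went from 50.3, 6.45 and 17.6 to 9928, 14421 and 22421 CPM (log2 fold change 9.301, SE 0.79, adjusted p = 1.19e-05). Hspb1 rose from 1203, 708 and 701 to 4148, 4456 and 7258 CPM (log2 fold change 2.602, SE 0.38, adjusted p = 0.0005) and Bag3, a co-chaperone, from 23.6, 23.5 and 29.3 to 215, 279.6 and 447 CPM (log2 fold change 3.62, SE 0.39, adjusted p = 7.03e-05). Of 20 heat shock and unfolded protein genes 10 rose and none fell, and 6 rose without unstripped library 2 or 3. Glycolytic and hypoxia genes rose in 12 of 31 with 1 lower (Pfkl), among them Aldoa from 613, 304 and 423 to 1980.3, 6469 and 8053 CPM (log2 fold change 3.62, SE 0.56, adjusted p = 0.000675) and Ldha from 249, 216 and 206 to 714, 1120.3 and 1289.96 CPM (log2 fold change 2.22, SE 0.297, adjusted p = 0.000258). Muscle also expresses many of these genes, and its part in their rise was not tested. Pfkl, the liver-type phosphofructokinase, was not called without unstripped library 1 or 2 (adjusted p = 0.0906 and 0.0534).

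Of 9 metallothionein and zinc transport genes 3 rose (Mt1, Mt2 and Slc39a14) and 1 fell (Mt4), and Slc39a14 was not called without unstripped library 3 or stripped library 2 (adjusted p = 0.0869 and 0.0523). Mt1 rose from 847, 461 and 481 to 5046, 11530.2 and 15479 CPM (log2 fold change 4.16, SE 0.45, adjusted p = 7.03e-05) and Mt2 from 1057, 1587 and 1701 to 5315, 8745 and 10846 CPM (log2 fold change 2.52, SE 0.34, adjusted p = 0.000265). Mt4, the metallothionein of stratified epithelium, fell from 134, 128 and 107 to 0, 6.14 and 1.92 CPM (log2 fold change -5.43, SE 1.12, adjusted p = 0.0052). Of 22 tested targets of NRF2 3 rose (Srxn1, Slc7a11 and Gpx3), 1 fell (Tkt) and the rest were not called. Tkt, transketolase, was at 188, 109 and 115 and 51.5, 78.2 and 44.7 CPM (log2 fold change -1.24, SE 0.37, adjusted p = 0.0401), was called in 3 of the 10 alternative analyses and lost its call without any 1 unstripped or NGO library or stripped library 1 or 3 (adjusted p 0.0529 to 0.167). Srxn1 and Slc7a11 rose from 13.3, 9.38 and 10.6 to 76.7, 134 and 289 CPM (log2 fold change 3.91, SE 0.53, adjusted p = 0.0003) and from 2.05, 2.93 and 0.88 to 85.9, 37.2 and 13.4 CPM (log2 fold change 4.51, SE 0.99, adjusted p = 0.00777). Srxn1 and Slc7a11 differed in which stripped library was highest, library 3 for Srxn1 and library 1 for Slc7a11. Fat genes rose too, in 6 of 15 tested members with 1 lower (Cebpa, not called without unstripped library 1 or 3, adjusted p = 0.0677 and 0.0506). Fabp4 rose from 13.3, 16.4 and 18.8 to 194, 204 and 184 CPM (log2 fold change 3.58, SE 0.38, adjusted p = 6.01e-05) and Car3 from 4.11, 0.88 and 17 to 506, 1132 and 1127 CPM (log2 fold change 6.96, SE 0.84, adjusted p = 0.000136).

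The order of the stripped libraries was not the same for these groups. Summed muscle was lowest in stripped library 1 and highest in library 3, as the fast list shows. The summed CXC chemokines were at 11.3, 15 and 24.9 CPM in the unstripped and 3994, 4977 and 2288 CPM in the stripped libraries, so stripped library 3, with the most muscle, held the least. Summed neutrophil effector genes were at 178, 197 and 181 and 5183, 10458 and 3882 CPM, with library 2 highest. Most of each stripped sum was S100a8 and S100a9, and which cells held these transcripts was not tested. Summed desmosome genes were at 8136, 6501 and 6602 and 819, 686 and 493 CPM, lowest in library 3. With library sizes that left out muscle, fat, blood and Rn45s, 1873 genes were called, 864 higher and 1009 lower, close to the 1870 of the main test.

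**Figure D5:**
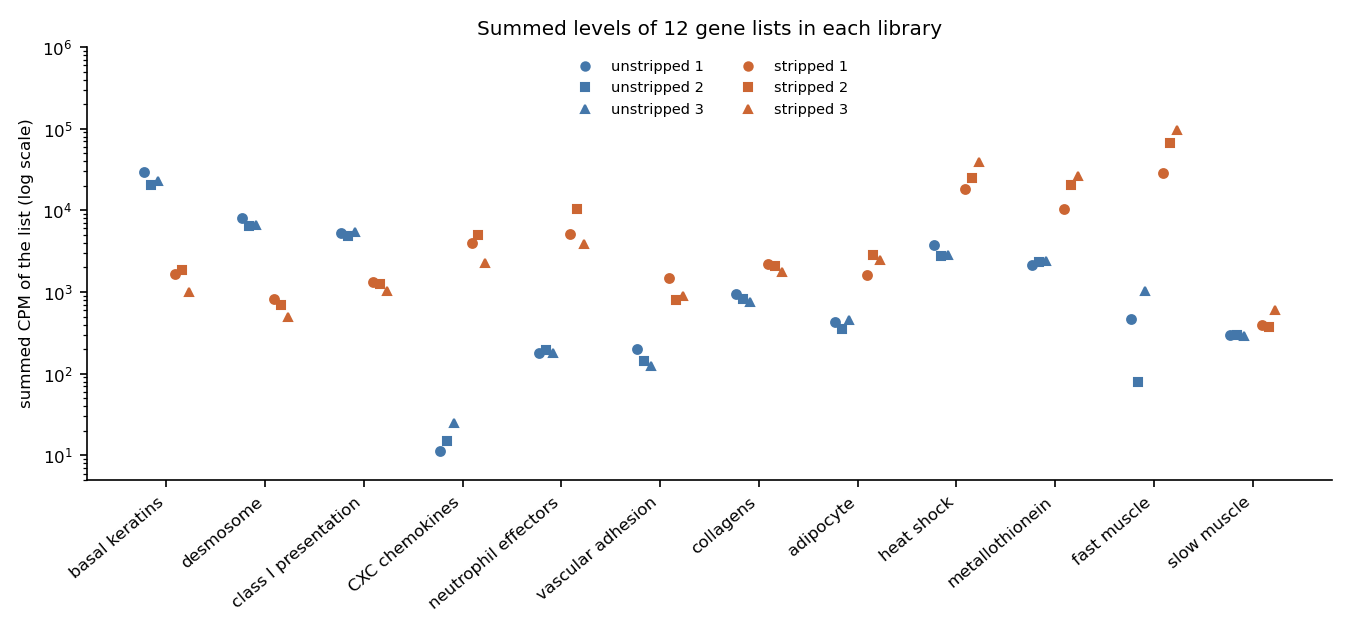
Summed CPM of 12 gene lists (log scale) in each of the 3 unstripped (blue) and 3 stripped (orange) libraries, with the marker shape giving the library number. Epidermal and class I lists lie lower and chemokine, neutrophil, vessel, collagen, fat, heat shock, metallothionein and fast muscle lists lie higher in every stripped library. In the slow muscle list the groups come close, and the library highest for muscle is not the highest for chemokines.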

How the data were processed

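Whole-number counts per gene symbol were deposited by the authors as 1 table per library (QuantSeq 3′ libraries from 500 ng of Trizol RNA, per the labels' protocols). Bowtie2, bedtools and mm10 are named, without versions, in the submitters' processing notes. The sources used here give neither strand handling nor the treatment of reads with several matches. Overlapping, antisense and near-identical genes carry that doubt. Each table lists 23282 entries. Of these, 44 repeat a symbol (35 symbols in all) and were treated as genes of their own.

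Libraries were grouped by their labels. The main test was the robust quasi-likelihood test of edgeR 4.0.16 (R 4.3.3) after TMM scaling and filterByExpr. Its model had 1 coefficient per group over all 9 libraries, and p-values were adjusted by Benjamini-Hochberg over all 13740 genes tested. Calls needed an adjusted p under 0.05. The script was tested on simulated counts. Exact permutation of 3 against 3 libraries cannot go below 0.1 and was not used.

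The comparison, the 59 gene lists and the rule for naming genes were chosen with earlier results of these data known. The rule took the 10 smallest p in each direction among called genes of at least 32 CPM with separate groups, and from each list the 3 smallest p and the 3 highest means. Members outside it, named to complete a count of 6 or fewer, were chosen after their values were seen, as were the Lce3 genes. Of the 267 genes that the rule gives, 172 are named, and the others are not reported here. Alternatives were RLE and upper-quartile scaling, library sizes without muscle, fat, blood and Rn45s, no filter, at least 20 counts in 3 libraries, limma-voom (limma 3.58.1) with group weights, DESeq2 1.42.0, the 6 libraries alone, a replicate block, a 1.5-fold test and leaving out each library. Floors cover counting error only, while the SE also takes in the spread between libraries.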

Additional observations from a re-analysis of the deposited data

How the results depend on the processing

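The number of genes called depended on the tool and on the unstripped libraries. Leaving out 1 library at a time gave 1159 to 2124 calls, of which 525 to 976 were higher and 568 to 1148 lower, against 1870, 820 and 1050 with all libraries. DESeq2 called 2976 genes, 1428 of them higher, and kept 1863 of the 1870 calls. The remaining alternatives stayed within 1.5 times the main counts, from 1457 calls in a test against a 1.5-fold change to 2040 in limma-voom. With the replicate block 1650 genes were called (740 higher and 910 lower). Libraries with the same number did not deviate together (r = -0.064, -0.015 and -0.019), so the numbers were taken as names and not as pairs. Of the 197 named genes tested, 1 changed direction: Krt16, not called, ran from -0.54 to 0.40 when 1 library was left out, above 0 without unstripped library 1 (0.40) or stripped library 3 (0.05), against -0.23 with all. The cause of these differences was not tested. Depth limits low genes: a group at 0 sets a bound of 3 counts only, and a threshold missed with 3 libraries a group does not show that a level did not differ.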

Other observations

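Several genes outside the groups above also separated the libraries. Clca3a2, a chloride channel accessory gene, was at 925, 580.5 and 552 CPM in unstripped and 15.9, 28.1 and 20.5 CPM in stripped skin (log2 fold change -4.99, SE 0.399, adjusted p = 1.08e-05), one of the 10 smallest p among genes that fell. Krt23, a keratin of simple epithelia, fell from 57.1, 54.2 and 60.7 CPM to no count in stripped skin, at least 156-fold (adjusted p = 0.00335). Pdpn, podoplanin, a gene of lymphatic vessels that activated keratinocytes and fibroblasts also use, rose from 71.2, 37.5 and 63.3 to 305, 299 and 232 CPM (log2 fold change 2.28, SE 0.399, adjusted p = 0.00171). The other two tested lymphatic genes did not pass. Bhlhe40, a repressor of the circadian clock, rose from 3.08, 11.1 and 13.5 to 50.4, 114 and 72.9 CPM (log2 fold change 3.09, SE 0.64, adjusted p = 0.00547), among 17 tested clock genes of which 3 rose and none fell. Gpx3, an extracellular glutathione peroxidase, rose from 0.342, 1.76 and 0.586 to 23.2, 58.5 and 71.9 CPM (log2 fold change 5.77, SE 1.01, adjusted p = 0.00167). Hk2, the hexokinase of muscle and fat, rose from 93.7, 85.6 and 54.5 to 497, 2656 and 2307 CPM (log2 fold change 4.55, SE 0.56, adjusted p = 0.000153), with stripped library 1 far below the other two.

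Eicosanoid genes were the one inflammatory list with falls and no rise, 5 of 13 tested, but this count did not hold: it was 0, 2 and 3 without unstripped library 1, 2 or 3, and 3 and 2 without stripped library 2 or 3. The members that fell were Ltb4r1, Ptger4, Ptgs1, Hpgds and Alox5.

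The lists not described above gave small counts, and most of these moved when 1 library was left out. Among all genes tested, 5.97% were called higher and 7.64% lower. A count of 1 in such a list lies near these shares and is no result about the list. Pericyte and smooth muscle genes rose in 4 of 12 tested members with none lower (2 to 4 with 1 library left out). Resident macrophage genes had 1 rise and 1 fall in 12 (0 to 2 and 0 to 1). Dermal fibroblast genes had 2 rises and 3 falls in 17 (2 to 3 and 1 to 3). Hair follicle stem and progenitor genes had 2 rises and 3 falls in 14 (0 to 2 and 3 to 4), and melanocyte and Schwann cell genes 1 rise in 11 (0 to 2). Sebocyte and lipid synthesis genes fell in 5 of 17 with none higher (5 to 8), and kallikreins and other desquamation proteases in 4 of 15 (2 to 5). Genes of DNA synthesis fell in 3 of 23 with none higher (1 to 4). Genes of apoptosis and p53 rose in 3 of 18 with none lower (0 to 3), matricellular genes in 3 of 16 with 1 lower (3 to 5 and 1 to 2), and secreted antimicrobial genes in 3 of 14 with 1 lower (3 to 4 and 0 to 2). Red blood cell genes rose in 5 of 6 (3 to 5).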
